A study of Mus musculus with 22 samples.

Results

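The cells described here are the cycling cells of mouse esophageal epithelium in a carcinogen model of esophageal squamous cell carcinoma (ESCC). They were defined by a threshold on UMIs, the unique molecular identifiers that each count 1 captured RNA molecule. A cell of an ESCC library was included when Top2a, Mki67, Cenpf, Ube2c, Cdk1, Ccna2, Ccnb1, Nusap1 and Birc5 together held at least 3 UMIs and at least 0.3% of its UMIs. Cells with 5 or more UMIs of Krt6b and Krt16, or 5 or more of Krt1 and Krt10, were left out. In all, 185 of the 1500 deposited ESCC cell profiles met this rule, out of 4500 profiles in the series. The 13 genes of the rule chose the cells, so their values are a description and support nothing.

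All mice were C57BL6, and inDrop single-cell libraries were made from the epithelium-enriched layer peeled from the muscle of the esophagus. The 3 ESCC mice, titled 8M, 17F and 17M and aged 8 to 10 months, were given the carcinogen 4NQO, dissolved at 100 µg/mL with 2% propylene glycol, as drinking water over 16 weeks and were then kept 8 weeks without it. The 6 control mice were untreated and were either young (mice 1, 2 and 6, 3 to 4 months) or old (mice 3, 4 and 5, 18 to 20 months), so no control had the age of the ESCC mice. Each of these mice gave 2 libraries, which were pooled per mouse. The labels name peeled epithelium and no dissected tumour, so the ESCC cells may come from lesions and from the epithelium around them. The third group, mice with eosinophilic esophagitis (EoE) induced with MC903 and ovalbumin, had a median of only 138 UMIs per cell, and its 35 cells that met the rule were only counted.

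Esophageal epithelium renews itself from a basal layer of dividing keratinocytes, whose progeny stop dividing as they move upwards and differentiate. A dividing cell copies its DNA in S phase, prepares for mitosis in G2 and separates its chromosomes in M phase. Genes of DNA replication are largely driven by E2F factors early in the cycle, and genes of mitosis by the B-MYB, FOXM1 and NF-Y factors later, the latter through CCAAT boxes and a CHR element close to the start site. Of the genes in the rule, Top2a untangles DNA, Mki67 coats mitotic chromosomes, Cenpf binds the kinetochore, and Cdk1 with its cyclins Ccna2 and Ccnb1 drives entry into mitosis. Ube2c feeds ubiquitin to the anaphase promoting complex, Nusap1 bundles spindle microtubules and Birc5 belongs to the chromosomal passenger complex.

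The promoters of 3 rule genes and of a replication gene are shown because the S phase and G2/M groups described below differ in these elements. The windows are RefSeq sequences of build GRCm38.p6, from 250 bases before to 50 after the start of the gene and read 5′ to 3′ on its strand. Capitals mark CCAAT, the CHR letters TTTGAA or TTCGAA, and the E2F letters TTTGGCGC or TTTCGCGC, each searched on both strands, so that ATTGG marks a CCAAT on the other strand. Top2a is shown for its repeated CCAAT boxes (chr11:99024140-99024439, minus strand), Cdk1 for its paired CHR letters (chr10:69352863-69353162, minus strand), Ube2c as a gene of late mitosis (chr2:164769679-164769978, plus strand) and Mcm5, a subunit of the replicative helicase, for its E2F letters (chr8:75109259-75109558, plus strand).
Top2a: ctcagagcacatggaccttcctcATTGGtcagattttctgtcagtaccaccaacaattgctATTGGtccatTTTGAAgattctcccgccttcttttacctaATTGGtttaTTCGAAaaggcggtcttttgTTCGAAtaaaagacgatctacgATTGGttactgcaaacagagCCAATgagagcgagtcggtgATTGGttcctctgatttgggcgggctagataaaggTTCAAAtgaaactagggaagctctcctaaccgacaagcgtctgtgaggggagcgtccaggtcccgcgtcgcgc
Cdk1: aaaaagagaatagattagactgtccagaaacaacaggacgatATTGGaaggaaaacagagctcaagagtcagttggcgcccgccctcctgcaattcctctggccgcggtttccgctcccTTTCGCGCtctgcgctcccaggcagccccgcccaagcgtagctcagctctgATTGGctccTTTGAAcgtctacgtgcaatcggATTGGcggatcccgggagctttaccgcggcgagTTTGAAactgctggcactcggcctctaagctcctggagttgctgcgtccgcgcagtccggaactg
Ube2c: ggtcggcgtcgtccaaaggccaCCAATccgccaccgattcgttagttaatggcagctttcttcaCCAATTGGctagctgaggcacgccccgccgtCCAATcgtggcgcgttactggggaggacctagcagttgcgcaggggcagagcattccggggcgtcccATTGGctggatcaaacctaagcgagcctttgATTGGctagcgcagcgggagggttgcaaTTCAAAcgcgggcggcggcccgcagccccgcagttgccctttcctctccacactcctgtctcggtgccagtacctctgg
Mcm5: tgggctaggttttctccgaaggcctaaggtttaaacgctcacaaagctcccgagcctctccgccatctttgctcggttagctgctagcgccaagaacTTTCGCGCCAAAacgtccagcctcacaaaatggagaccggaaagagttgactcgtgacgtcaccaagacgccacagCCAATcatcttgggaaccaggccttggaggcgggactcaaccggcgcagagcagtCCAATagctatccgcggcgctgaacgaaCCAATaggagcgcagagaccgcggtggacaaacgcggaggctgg
The Top2a window held 4 CHR matches and the Cdk1 window 2, whereas the Mcm5 window held none and had 2 E2F matches that overlap on opposite strands. A window was found for 8 of the 9 cycle genes of the rule, and 5 of these 8 windows held CHR letters and at least 2 CCAAT boxes. A list of 47 G2/M genes outside the rule had 45 windows for 40 of its genes, of which 73.3% held CHR letters and 75.6% a CCAAT box. In a list of 43 S phase genes, with 34 windows for 31 genes, CHR letters stood in 17.6%, CCAAT in 67.6% and E2F letters in 20.6%. Over all 32851 windows of the table the shares were 19.2% for CHR, 37.4% for CCAAT and 0.813% for E2F. A match describes these letters in this window and does not show that a factor binds there.

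Several features of the profiles bear on the results. Cells that met the rule had a median of 5034 UMIs in mouse 8M, 4012 in 17F and 3187 in 17M, against medians of 943 to 1688.5 in the 6 control mice. In 117 cases a barcode occurred in both libraries of the same ESCC mouse, and in 122 cases in both libraries of the same control mouse. The paired profiles differed by less than sampling noise (median chi-square per degree of freedom 0.363 in ESCC and 0.409 in control), against 1.91 and 1.61 for the 4 and 2 barcodes shared between mice. They may thus be the same cell deposited more than once, and the 185 profiles carried 171 distinct barcodes. Genes with at least 20% of their transcript ends shared with another gene also differed between conditions. They held 17.7 to 20.7% of the UMIs of rule cells in ESCC and 8.22 to 10.2% in control. Gapdh, a glycolytic enzyme of every cell, was at 1394 to 1608 CPM (its UMIs scaled to a common total of all UMIs in the summed cells) in ESCC rule cells and at 0 in those of all 6 control mice. For such genes, condition and counting cannot be told apart.

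The cycling cells made up 63 of 326 profiles in mouse 8M (19.3%, Wilson 95% interval 15.4 to 24.0), 67 of 513 in 17F (13.1%, 10.4 to 16.3) and 55 of 661 in 17M (8.32%, 6.45 to 10.7), and these intervals cover counting error only. The intervals take each profile as a separate cell and are too narrow if the profiles of a repeated barcode are 1 cell. Distinct barcodes numbered 299, 475 and 609 in 8M, 17F and 17M, and those of rule cells 56, 62 and 54. The share was highest in 8M and lowest in 17M. The share of profiles that passed the keratin limits fell in the same order, at 85.3%, 71.7% and 53.3%. Among the profiles that passed them, the rule cells were 22.7%, 18.2% and 15.6%. Another 40 profiles had enough cycle UMIs and were left out by a keratin limit, 26 of them in 17M, 10 in 17F and 4 in 8M. All 40 had Krt6b and Krt16 above the limit. Just inside the cycle threshold, 51 cells had 0.3 to 0.4% cycle UMIs and none had exactly 3 cycle UMIs, whereas 174 had 10 or more. Just outside it, 78 profiles with at least 3 cycle UMIs and passing keratins lay at 0.2 to 0.3%.

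To compare the share with control epithelium, every cell was thinned to 800 UMIs, which left out 464 shallower control profiles and no ESCC profile. The thinned share was 17.8%, 12.9% and 11.8% in 8M, 17F and 17M (14.2% ± 3.2, SD, n = 3). In control mice it ranged from 13.1 to 18.6% (15.3% ± 1.86, SD, n = 6). The groups overlapped, and the difference of -1.13 percentage points was within the spread between mice (two-sided exact permutation test, p = 0.524, where the smallest p this design allows is 0.0238). Without thinning, control mice had 12.5 to 18.0%. The direction was not stable. Without mouse 17M the difference was 0.0488 points, and among cells that passed the keratin limits the share was 16.9% ± 1.51 in ESCC and 15.4% ± 2.02 in control (SD, n = 3 and 6, exact permutation p = 0.286). The difference was -3.52 points with cells thinned to 500 UMIs (exact permutation p = 0.119) and -4.32 under a stricter rule of 5 UMIs and 0.5% (exact permutation p = 0.0714). The study drew the same number of cells per condition, so these are shares of the deposited profiles.

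**Figure D1:**
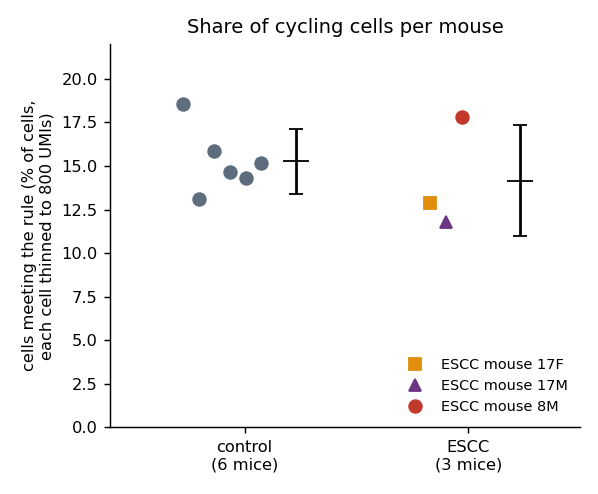
Share of cells meeting the rule (% of the cells of a mouse, each thinned to 800 UMIs) in 6 control and 3 ESCC mice, with a point per mouse and the mean ± SD beside each group. The ESCC mice, at 11.8 to 17.8%, lie within or just below the control range of 13.1 to 18.6%.

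The 9 cycle genes of the rule were high in the selected cells of every mouse, as the selection requires. Top2a was at 1733, 1263 and 1241 CPM in the rule cells of 8M, 17F and 17M and at 128, 158 and 189 CPM in the other ESCC cells, a ratio of 13.6, 8.00 and 6.58. Ube2c was at 1168, 842 and 948 CPM, which was 18.2, 10.8 and 5.85 times the other cells. Cdk1 was at 465.9, 440 and 389 CPM, or 15.2, 7.28 and 4.49 times the other cells. For these 3 genes the ratio was largest in 8M and smallest in 17M, and their level in the other cells was lowest in 8M and highest in 17M. Rule cells held 81.1% of all cycle UMIs in 8M, 60.6% in 17F and 37.6% in 17M. Top2a was detected in 94.6% of rule cells, in 23.4% of the other ESCC cells and in 18.5% of the 65 ESCC cells rich in Krt1 and Krt10. Those 65 keratinizing cells were deeper (median 5131 UMIs) than the rule cells (4092), and a share near theirs cannot be told from free RNA. Mki67 was detected in 87.0% of rule cells against 13.8% of the keratinizing cells, and Nusap1 in 67.0% against 3.08%.

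**Figure D2:**
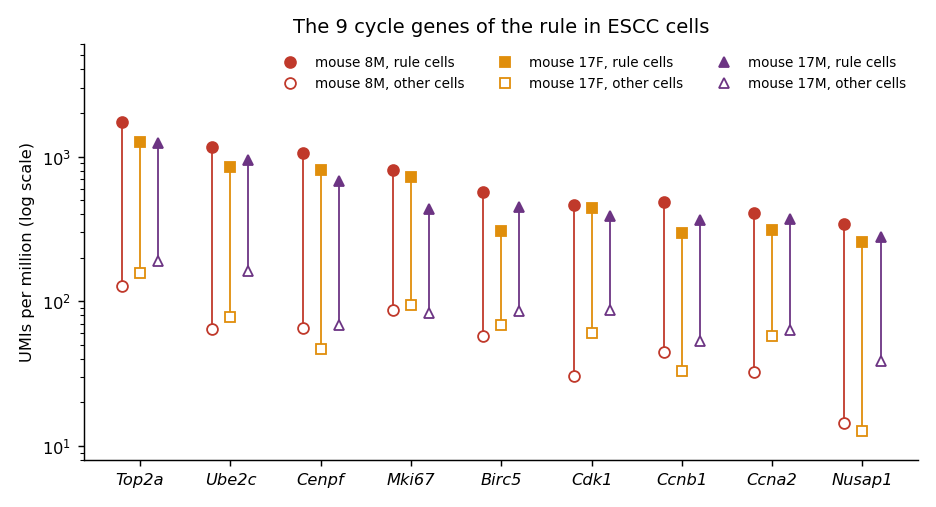
Level of the 9 cycle genes of the rule (CPM, log scale) in rule cells (filled) and other cells (open) of each ESCC mouse. Every filled symbol lies above its open partner, and the gap for Cdk1 narrows from 15.2-fold in 8M to 4.49-fold in 17M.

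The markers of the label are genes of the rule and so give no check of it. Of genes outside the rule, Krt5, a basal keratin, was detected in 97.8% of the selected cells and Trp63, the master regulator of stratified epithelium, in 75.7%. Krt5 was also found in 97.6% of the other ESCC cells and 95.4% of the keratinizing cells, and Trp63 in 62.7% and 52.3%. Detection of these 2 genes thus does not tell the layers apart. The upper-layer genes Krt4, Krt13 and Krtdap were found in 55.7%, 57.3% and 49.7% of the selected cells, against 89.2%, 93.8% and 100% of the keratinizing cells. In the other ESCC cells they were found in 54.2%, 67.8% and 69.5%, so Krt4 was not rarer in the selected cells. Krt4 and Krt13 were each found in 90.5% of the selected cells of 8M. The shares were 29.9% and 41.8% in 17F and 47.3% and 38.2% in 17M. Markers of other cell types were rare. Col1a1 and Des, which define fibroblasts and muscle, and Cd207 of Langerhans cells were at 0, Ptprc of leukocytes had 5 UMIs in 4 cells, and Pecam1 of endothelium 13 UMIs in 3 cells. Dcn, a fibroblast proteoglycan, had 71 UMIs in 23 cells. The summed level of the 17 immune genes in the table was 0.00191 to 0.0298% of UMIs in rule cells of ESCC mice and 0 to 0.00372% in those of control mice. The fibroblast list overlapped between the groups (0.00532 to 0.0163% and 0.00372 to 0.067%), and the muscle and endothelial lists stayed at or below 0.0115%. By those markers, 3 of the 185 cells were called non-epithelial.

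Levels of genes outside the rule are set beside those of the other ESCC cells here as a description. Of 4760 measured genes, 47 (0.987%) were at least 2-fold higher in rule cells of all 3 mice and 66 (1.39%) at least 2-fold lower. Only 1109 of these genes had enough UMIs to be counted as higher, and 4752 to be counted as lower, so the shares are not comparable. This is the contrast that the rule itself cuts, so no test is given and nothing is read from the counts. Among genes of the spindle and of cytokinesis, 8 of 9 measured genes were higher, with a median ratio of 6.39 against 1.01 for all genes. Plk1, a kinase of mitotic entry and spindle assembly, was at 367, 287 and 261 CPM and 15.6, 8.48 and 7.195 times the other cells. Kif23, a motor of the central spindle, was at 345, 268 and 319 CPM with ratios of 9.38, 8.98 and 4.78. Among kinetochore and checkpoint genes 7 of 9 were higher (median ratio 5.47), led by Cenpe, a kinetochore motor, at 475, 391 and 288 CPM with ratios of 12.3, 8.42 and 5.84. The G2/M list had 18 of 25 higher, with a median ratio of 4.11. The microcephaly gene Aspm, which acts at spindle poles, had the ratios 11.6, 6.2 and 9.98.

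Genes of DNA replication had ratios closer to 1. In the S phase list none of 17 measured genes was counted as 2-fold higher, and the median ratio was 1.6. The list of replication licensing and fork genes had 0 of 14 with a median of 1.67. A gene was measured when either set of cells had enough UMIs. Members with too few UMIs in rule cells could thus not be counted as higher, whatever their ratio. The number of such members is not given, so these counts are not comparable with those of the mitotic lists. Rrm1, the large subunit of ribonucleotide reductase, was at 367, 309 and 383 CPM with ratios of 3.46, 1.89 and 2.25. Mcm5 was at 172, 190 and 325 CPM with ratios of 2.25, 1.19 and 2.18. Tk1, the thymidine kinase that salvages thymidine for replication, was the only nucleotide supply gene of 12 counted as 2-fold higher, with ratios of 4.01, 2.89 and 2.44. The chromatin list had 4 of 11 higher, among them Hmgb2, a DNA-bending protein, at 409, 227 and 170 CPM with ratios of 5.89, 3.68 and 3.39. Tubb5, a beta tubulin, was at 1803, 1624 and 1826 CPM with ratios of 5.97, 2.68 and 2.98.

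**Figure D3:**
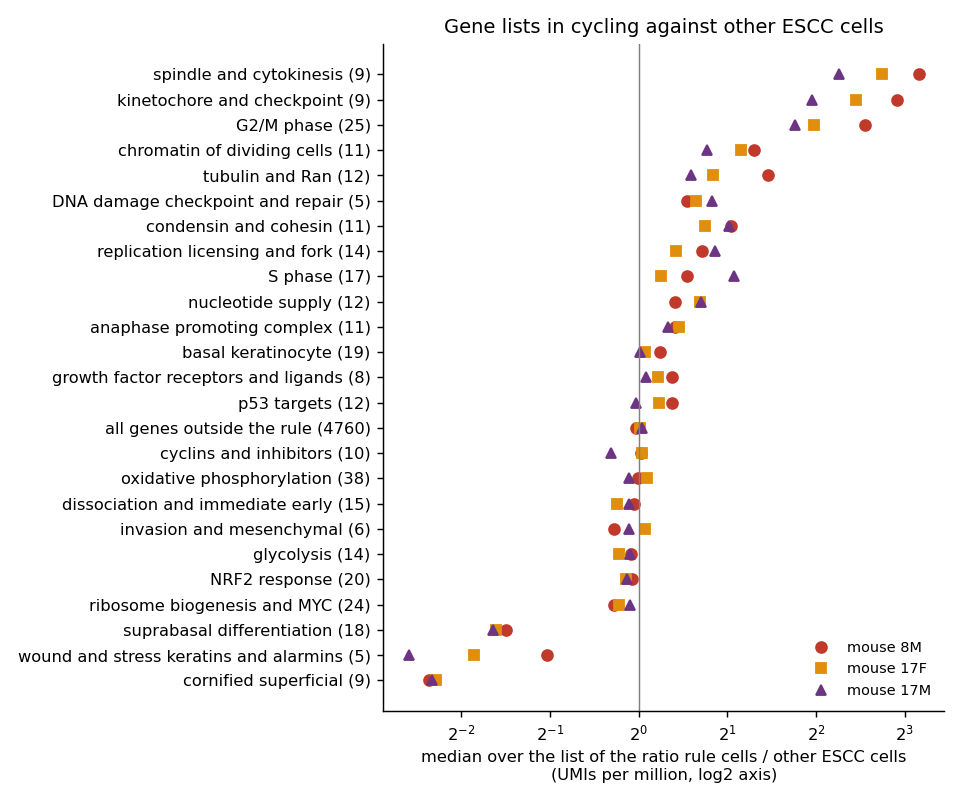
Median over each gene list of the ratio of rule cells to other ESCC cells (log2-spaced axis), with a symbol per ESCC mouse and the number of measured genes in brackets. Spindle, kinetochore and G2/M lists lie above 2 and cornified, suprabasal and wound lists below 1, while the pooled median of all genes is 1.01.

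Lists of upper-layer genes held some of the 66 low genes. In the list of suprabasal differentiation 10 of 18 measured genes were at least 2-fold lower (median ratio 0.295), and in the cornified list 7 of 9 (0.205). Krt4, a keratin of the upper layers of mucosal epithelium, was at 868, 156 and 272 CPM in rule cells and at 6729, 1702 and 1611 CPM in the other ESCC cells. Sprr1a, a cornified envelope precursor, was at 12.8, 0 and 5.32 CPM against 89.8, 71.0 and 108. Among wound genes outside the rule 3 of 5 were lower, with Krt6a, an injury keratin, at 1225, 2120 and 1709 CPM against 2512, 5377 and 6708. The keratin limits of the rule take part in this side of the contrast. When the other cells had to pass the same keratin limits, only 3 genes were 2-fold lower, while 38 were higher, 37 of them also among the 47.

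In the lists of basal genes, metabolic genes and p53 targets no gene was counted as 2-fold apart between the sets of ESCC cells. Over all measured genes 0.987% were counted as higher and 1.39% as lower, so few would be counted in lists of this size. The basal keratinocyte list had a median ratio of 1.19 over 19 genes, oxidative phosphorylation 0.977 over 38, glycolysis 0.916 over 14, the NRF2 antioxidant response 0.912 over 20 and p53 targets 1.08 over 12. Smaller differences were present. In all 3 mice 8 NRF2 genes and 7 glycolysis genes had ratios below 1, and 3 and 2 above 1. Of the basal genes 8 were above 1 in all 3 mice and 1 below. Over all 4760 genes 991 were below 1 and 1062 above 1 in all 3 mice. Of 10 measured cyclins and inhibitors, Ccnb2 and the retinoblastoma relative Rbl1 were higher and Cdkn2a, which encodes the cycle inhibitor p16, lower. Ccnd2, a D-type cyclin, was at 223, 242 and 160 CPM against 537, 366 and 334 CPM in the other cells.

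Of the cycling cells, 174 of 185 had more UMIs of the G2/M list than of the S phase list, 8 had more of the S phase list and 3 the same number. The lists differ in baseline, since 788 of the 1315 other ESCC cells and 221 of the 234 control cycling cells also had more G2/M UMIs. The rule's own genes are mostly those of G2 and mitosis, so the rule takes part in this count. A subset of 59 rule cells (16 in 8M, 19 in 17F and 24 in 17M) held at least 3 S phase UMIs and at least 0.3% of their UMIs in that list. Another 251 ESCC cells outside the rule passed the same S phase limits, 189 of them within the keratin limits.

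Within the rule cells, the S-rich subset and the other 126 cells differed in further genes, given here as a description and chosen after their values were seen. Lig1, the ligase that joins Okazaki fragments, was at 187, 161 and 279 CPM in the S-rich cells of 8M, 17F and 17M and at 55.8, 42.6 and 64.3 in the rest. Dnmt1, the maintenance methyltransferase, was at 87.3, 186 and 190 CPM against 42.9, 85.2 and 27.5. Both were higher in the S-rich cells of all 3 mice. The S-rich cells of a mouse held only 78854 to 80538 UMIs, so values in this paragraph can rest on few UMIs. Dnmt1 had 7, 15 and 15 UMIs in the S-rich cells of 8M, 17F and 17M and 10, 16 and 3 in the rest. Plk1 was at 287, 124 and 114 CPM in the S-rich cells and at 395, 357 and 367 CPM in the rest. Cdc25b, the phosphatase that activates CDK1, was at 112, 37.2 and 76.1 CPM against 154, 154 and 165. Slc7a11, the cystine transporter and an NRF2 target, was at 112, 86.9 and 241 CPM in the S-rich cells and at 172, 511 and 771 CPM in the rest, so it too was lower in the S-rich cells of every mouse.

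**Figure D4:**
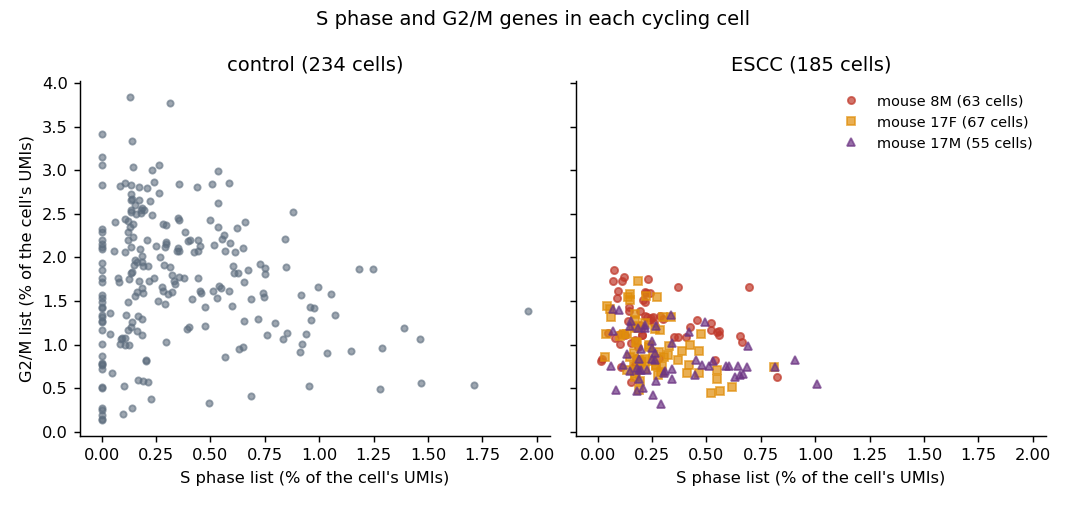
Share of a cell's UMIs in the S phase list (x axis, %) and the G2/M list (y axis, %) for each rule cell of control (left) and of the ESCC mice (right, a symbol per mouse). Control cells reach higher on the G2/M axis, with means per mouse of 1.59 to 1.98% against 0.835 to 1.20% in ESCC.

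Set beside the cycling cells of control epithelium, those of ESCC mice held a lower share of their UMIs in mitotic genes. The G2/M list, which leaves out the rule genes, held 1.20, 0.938 and 0.835% of the UMIs of rule cells in 8M, 17F and 17M (0.992% ± 0.189, SD, n = 3). In control mice it held 1.59 to 1.98% (1.77% ± 0.156, SD, n = 6), and the groups did not overlap. With cells thinned to 800 UMIs the means were 0.966% and 1.87%, and with genes of shared transcript ends also left out 1.11% and 1.89%. The S phase list held 0.292% ± 0.0480 in ESCC and 0.359% ± 0.0569 in control (SD, n = 3 and 6), and the groups overlapped. The genes of the rule itself, which set entry, held 0.703, 0.524 and 0.514% of UMIs in ESCC rule cells and 0.681 to 1.02% in control ones, and the part of this level in the difference was not tested. The ESCC cells were deeper, so in absolute terms they held 7854 G2/M UMIs in 185 cells and the control cells 4996 in 234. Whether a lower share comes from fewer cells late in the cycle or from less of these RNAs per cell cannot be told apart in sums per mouse.

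Gene by gene, UMI counts of the rule cells were summed per mouse and compared with edgeR over 1534 genes, of which 264 (17.2%) were higher in ESCC and 226 (14.7%) lower at an adjusted p under 0.05. The count of lower genes was 112 without mouse 17F, 108 without 17M and 136 against the old controls only. Of 33 tested G2/M genes 14 were lower and none higher, with a median log2 fold change of -0.56 against -0.02 for all genes tested. The lower count was 7 without mouse 17M, 10 without 17F and 17 without 8M, 10 of 21 in thinned cells, 8 of 30 under the stricter rule and 6 of 46 without a filter on low counts. A gene could pass that filter through the control mice alone, and such a gene could hardly come out higher in ESCC. Without control mouse 6, 1 gene of the list was higher. Kinetochore genes had 6 of 14 lower and spindle genes 6 of 16, and these lists share members with the G2/M list. Over the alternatives the kinetochore count ranged from 1 (of 24, without a filter) to 7 and the spindle count from 4 to 8, and the kinetochore count was 2 without 17M, 3 without 17F and 3 without control mouse 6. The S phase list had 1 of 7 lower, the replication regulator Cdca7, and the licensing list 0 of 4.

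Smc4, the core of the condensin complex that compacts mitotic chromosomes (GRCm38 chr3:69004738-69034623), was at 1117, 924 and 682 CPM in 8M, 17F and 17M, against 1675 to 2544 CPM (median 2023) in control mice. All ESCC mice lay below all control mice, with a log2 fold change of -0.94 (SE 0.22, adjusted p = 0.0013). Hmmr, a spindle assembly factor, was at 227, 160 and 170 CPM against 347 to 735, again without overlap (log2 fold change -1.15, SE 0.25, adjusted p = 0.000644). Cenpa, the histone variant that marks centromeres, was at 533, 417 and 351 CPM against 795 to 1101. Cdc20, the activator of the anaphase promoting complex, was at 310, 287 and 213 CPM against 414 to 718, and its catalytic RING subunit Anapc11 at 131, 149 and 128 CPM against 304 to 614. The groups did not overlap for any of the 3 genes, and the log2 fold changes were -0.78 for Cenpa, -0.85 for Cdc20 and -1.41 for Anapc11. Anapc11 passed the filter on low counts only through the control mice, and the alternatives include a fit without that filter. The calls of Smc4, Hmmr and Anapc11 held under all 20 alternatives tried, whereas those of Cenpa and Cdc20 were lost without mouse 17M, without a filter and under the stricter rule, and that of Cdc20 also against old controls only (largest adjusted p over the alternatives 0.125 and 0.0965).

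Not every mitotic gene was lower. Plk1 was at 367, 287 and 261 CPM in ESCC and 207 to 558 CPM in control (log2 fold change 0.10, SE 0.24, adjusted p = 0.787), and Incenp, the scaffold of the passenger complex, at 600, 458 and 474 CPM and 303 to 676 CPM (0.36, SE 0.23). In both genes the groups overlapped. Tubb5 was at 1803, 1624 and 1826 CPM against 1340 to 2093 CPM (0.24, SE 0.19), also with overlap, while its relative Tubb6 was lower at 217, 138 and 197 CPM against 266 to 570 (-1.05, SE 0.24, adjusted p = 0.00137), without overlap before TMM scaling but with overlap after it. Tubb6 passed in all alternatives except that with cells thinned to 800 UMIs.

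Cdkn1a, which encodes the cyclin-dependent kinase inhibitor p21 and is a target of p53 (chr17:29090976-29100727), went the other way. It was at 667, 469 and 431 CPM in the cycling cells of 8M, 17F and 17M and at 39.7 to 248 CPM (median 196) in those of control mice. Every ESCC mouse lay above every control mouse (log2 fold change 1.81, SE 0.29, adjusted p = 1.46e-05, past the threshold in all 20 alternatives). A UMI of Cdkn1a was found in 67.6% of ESCC rule cells and 17.1% of the shallower control ones. Other p53 targets did not move as a group, since of 4 tested Phlda3, an AKT inhibitor, was also higher and Btg2, an antiproliferative gene that also responds early to stimuli, was lower. Phlda3 was at 246, 305 and 282 CPM against 112 to 255 CPM, with overlap before TMM scaling but not after (0.89, SE 0.26), and Btg2 at 488, 283 and 447 CPM against 683 to 1289, without overlap (-1.15, SE 0.23). The call of Phlda3 was lost under the stricter rule and against old controls only, and that of Btg2 in thinned cells.

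Among NRF2 response genes 12 of 15 tested were higher in ESCC cycling cells and none lower, with a median log2 fold change of 1.13, and the count was 12 of 13 without the genes of shared transcript ends. This was not particular to cycling cells. In the other cells the list held 1.90 to 2.21% of UMIs in ESCC mice and 1.25 to 1.46% in control mice. Gsta4, a glutathione transferase that detoxifies lipid peroxidation products, was at 2007, 1814 and 2029 CPM in ESCC and 717 to 930 CPM in control (log2 fold change 1.54, SE 0.19, adjusted p = 1.57e-07). Gclm, a subunit of the rate-limiting enzyme of glutathione synthesis, was at 1682, 1848 and 2125 CPM against 761 to 1228 (1.12, SE 0.19). Neither gene overlapped between the groups. The thioredoxin Txn1 was at 2633, 2898 and 2870 CPM against 1881 to 3060 CPM (0.50, SE 0.19, adjusted p = 0.0445), and this call passed in only 11 of 20 alternatives.

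Keratins also differed between the cycling cells of ESCC and control mice. Krt14, a basal keratin, was higher, at 4796, 7596 and 7476 CPM against 2598 to 5202 in control (log2 fold change 0.93, SE 0.20, adjusted p = 0.000913), with mouse 8M inside the control range before TMM scaling and above it after. It was also higher in the other cells of ESCC mice than in those of control mice, as given below. Krt15, which marks a basal subset of the esophagus, was lower at 3599, 1524 and 1070 CPM against 5913 to 9910 (-1.65, SE 0.29, adjusted p = 4.71e-05), without overlap. Krt6a was higher at 1225, 2120 and 1709 CPM against 168 to 759 (2.10, SE 0.27), without overlap. Krt5 did not pass, at 8571, 8665 and 9521 CPM against 6709 to 9037 (0.38, SE 0.16, adjusted p = 0.0719). Of the upper-layer keratins, Krt4 was at 868, 156 and 272 CPM against 1405 to 9068 (-3.23, SE 0.47), below every control mouse. Krt13, its pairing partner, was at 2837, 432 and 288 CPM against 2430 to 5195 (-1.51, SE 0.44, adjusted p = 0.0099). The call of Krt13 was lost without 17F, without 17M and against young controls only. The suprabasal differentiation list was also lower in the other ESCC cells, at 1.37 to 2.81% of UMIs against 4.28 to 8.07% in the other control cells. Mouse 8M stood closest to control in Krt15, Krt4, Krt13 and Krt14.

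Immediate early and stress genes, which respond within minutes to handling, also differed. Of 14 tested, 8 were lower in ESCC rule cells, among them Fos at 1994, 1166 and 1475 CPM against 4530 to 7363 (log2 fold change -1.63, SE 0.22), without overlap. The 3 higher ones were heat shock genes, among them Hspa1b at 641, 1084 and 1065 CPM against 335 to 726 (1.16, SE 0.23). The list also differed in the other cells, where it held 0.806 to 1.06% of UMIs in ESCC mice and 1.52 to 2.18% in control mice. The part of tissue handling in these values was not tested. Of 4 tested growth factor receptors and ligands 3 were lower, including Hbegf, a ligand of the EGF receptor, at 134, 89.4 and 101 CPM against 190 to 503 (-1.12, SE 0.28), and Fgfr2, a receptor for keratinocyte growth factor, at 367, 320 and 293 CPM against 279 to 743 (-0.69, SE 0.22). Hbegf did not overlap and Fgfr2 did. Hbegf passed the filter on low counts only through the control mice. Over all genes tested 14.7% were lower. Over the alternatives the lower count of this receptor and ligand list ranged from 0 to 3, with 1 to 15 of its genes tested. The call of Fgfr2 was lost in 6 of 20 alternatives, among them those without 17F and without 17M (largest adjusted p 0.233), and that of Hbegf in 2 of 19, under the stricter rule and against young controls only. Ncl, the nucleolar protein nucleolin, was higher at 1331, 1814 and 1342 CPM against 782 to 1291 (0.65, SE 0.20, adjusted p = 0.014), without overlap, and its call was lost without 17F and against young or old controls alone (largest adjusted p 0.122).

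Beyond the lists, the largest decreases among well detected genes included Crip1, a small LIM protein, at 335, 209 and 122 CPM against 1061 to 1747 (log2 fold change -2.38, SE 0.27), and H19, an imprinted long noncoding RNA, at 319, 44.7 and 53.2 CPM against 726 to 3344 (-3.56, SE 0.48). Cyp2f2, a cytochrome P450, was at 625.4 CPM in 8M but at 26.1 and 10.6 CPM in 17F and 17M, against 929 to 2305 in control (-2.42, SE 0.58), and DESeq2 did not call it. Ndufa4l2, a hypoxia-induced mitochondrial protein, had 6.38, 0 and 0 CPM against 112 to 457. None of these 4 genes overlapped between the groups, and all 4 needed the control mice to pass the filter on low counts. On the chromosome the end of Ndufa4l2 (chr10:127514967-127517154, plus strand) runs over that of Shmt2 (chr10:127517123-127522444, minus strand). Shmt2 was called higher in ESCC rule cells. The part of counting in the Ndufa4l2 values was not tested. Genes of shared transcript ends were mostly higher. Of the 143 such genes tested 65.0% were higher and 6.29% lower, against 12.3% and 15.6% of the 1391 others. Rps6, a ribosomal protein, was at 3651, 3904 and 4755 CPM in ESCC and 0 to 24.8 CPM in control. Npm1, a nucleolar chaperone, was at 2403, 2582 and 3232 CPM against 532 to 1619. The other cells of the same mice showed differences of like size, with a log2 fold change of 1.94 for Npm1 against 1.97 in the rule cells.

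**Figure D5:**
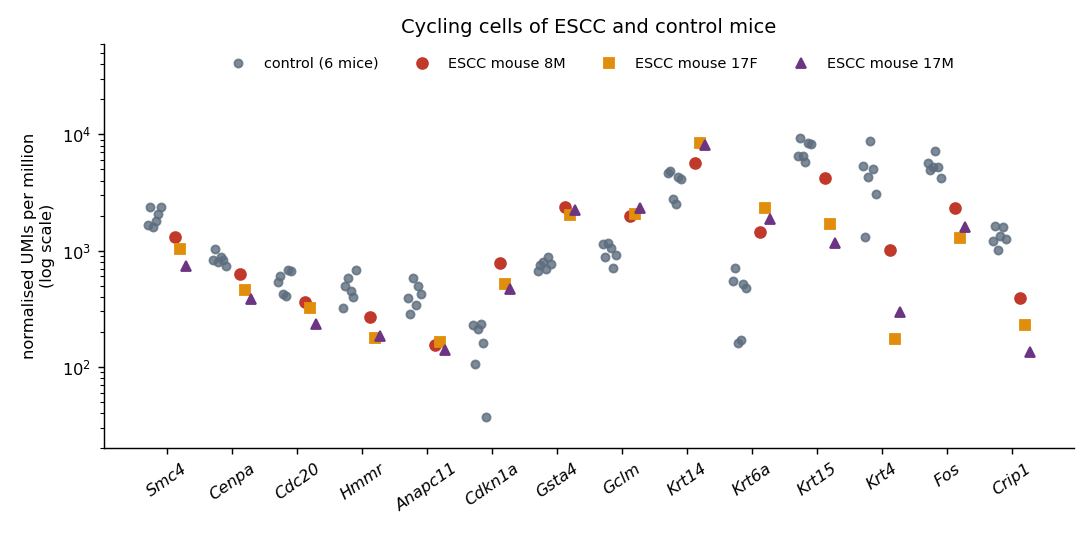
Normalised level (CPM after TMM scaling, log scale) of 14 genes in the cycling cells of each control mouse (grey) and each ESCC mouse (coloured symbols). Cdkn1a, Gsta4, Gclm and Krt6a of the ESCC mice lie above all control mice, and Smc4, Hmmr, Anapc11, Krt15, Krt4, Fos and Crip1 below them.

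The step from the other cells of a mouse to its cycling cells was also compared between conditions, with the mouse as a block. The coefficient is the log2 difference of rule cells from other cells in ESCC minus that in control. Of 6412 genes, 46 (0.717%) had a larger and 50 (0.78%) a smaller coefficient in ESCC at an adjusted p under 0.05. Without the block the counts were 5 and 12, and with cells thinned to 800 UMIs 15 and 17. They were 24 and 24 without mouse 17F, 36 and 19 without 17M, 55 and 28 without control mouse 1, 75 and 45 without control mouse 3, 39 and 33 without control mouse 5, and 40 and 27 without control mouse 6. The G2/M list had 17 of 44 smaller and 0 larger, and 3 smaller without the block and 6 of 35 in thinned cells. Leaving out a mouse gave 5 smaller without 17M, 10 without 17F, 9 without control mouse 1 or 6 and 10 without control mouse 5. The S phase list had 4 of 32 smaller (Mcm5, Mcm4, Rrm1 and Rad51ap1) and 0 larger, with 0 of 10 in thinned cells. The level of cycle genes in the other cells moves with this: the rule genes held 0.0523 to 0.0831% of UMIs in other ESCC cells and 0.0142 to 0.0322% in other control cells. Its part in the smaller step was not tested.

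Cdkn1a had the clearest larger coefficient. In control mice its level dropped from 603 to 1052 CPM in the other cells to 39.7 to 248 CPM in the cycling cells. In ESCC mice it was at 784, 458 and 578 CPM in the other cells and 667, 469 and 431 CPM in the cycling cells of 8M, 17F and 17M, ratios of 0.851, 1.03 and 0.746. The coefficient was 2.19 (SE 0.25, adjusted p = 1.56e-15) and passed in all 17 alternatives. Gsta4 also dropped less, from 3724, 3183 and 3849 CPM to 2007, 1814 and 2029 CPM in ESCC, against 2135 to 3255 CPM falling to 717 to 930 in control (0.93, SE 0.18, adjusted p = 0.000122). The differentiation factor Klf4 had a coefficient of 0.83 (SE 0.19) and Krtdap, a secreted protein of differentiating keratinocytes, 1.23 (SE 0.21). The calls of Gsta4, Klf4 and Krtdap were lost without the block. That of Klf4 was also lost in thinned cells, and that of Krtdap with DESeq2 and without mouse 17F.

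The smaller coefficients held basal and wound keratins as well as cycle genes. Krt14 was higher in cycling than in other cells of control mice (2598 to 5202 against 1310 to 3065 CPM), but in ESCC it was at 4796, 7596 and 7476 CPM in cycling and 4711, 9877 and 13808 CPM in other cells (coefficient -1.26, SE 0.16, adjusted p = 2.24e-11). Krt6a had a coefficient of -2.10 (SE 0.23, adjusted p = 2.32e-16) and Krt5 one of -0.77 (SE 0.16). The keratin limits remove Krt6b and Krt16 cells from the rule side in ESCC. Against other cells that pass the same limits the coefficient was -0.73 for Krt6a, -1.16 for Krt14 and -0.80 for Krt5, each still past the threshold. Among cycle genes Smc4 had -1.26 (SE 0.19), Cenpa -1.44 (SE 0.26), Cdc20 -1.58 (SE 0.31) and Ckap2, a spindle protein, -1.70 (SE 0.27). Of the 28 genes whose coefficients are given here or in the closing observations, 4 passed in all alternatives: Cdkn1a, Krt6a, Ckap2 and Tubb6.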

How the data were processed

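The data are inDrop single-cell UMI counts of mouse esophageal epithelium. The authors deposited whole-number UMI counts per gene and cell, not normalised. Per the labels and the study's methods they used UMI-tools 1.0.0 for barcodes and counting, STAR 2.7.3 on GRCm38 with GENCODE annotation and featureCounts, limited cells to 250 to 3500 genes and 100 to 9500 UMIs, and drew 1500 cells per condition. All 17541 genes were used here, and no column was left unmapped (0).

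The members, gene lists and tests were chosen with earlier results of these data known. Cells were picked by the stated rule and counts were summed per mouse over its 2 libraries, so p-values measure the spread between mice. Rule cells of ESCC and control were compared with edgeR 4.0.16 (R 4.3.3): filterByExpr, TMM, quasi-likelihood F test, Benjamini-Hochberg adjustment over all genes tested. The 13 rule genes stayed in the library sizes and were not tested. TMM factors were 0.851 to 0.915 in ESCC and 1.02 to 1.08 in control. The interaction used 2 sums per mouse, from rule and other cells of the same animal, with the mouse as a block, which is where the pairing comes from. Levels in the text are CPM of the summed cells without TMM scaling. Summed rule cells held 187800 to 313378 UMIs per ESCC mouse and 17910 to 80737 per control mouse, so 3 UMIs equal 11.2 to 17.5 CPM and 34.5 to 159 CPM after TMM scaling. Intervals and such floors cover counting error only. Shares were compared after thinning with an exact permutation test in scipy 1.17.1. The edgeR fits were tested on counts simulated from the means and library sizes of these data.

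The automatic threshold of Scrublet (scanpy 1.11.5) did not work, so the highest-scoring 6% of cells per mouse, 8 rule cells among them, were left out as an alternative. Other alternatives were DESeq2 1.42.0 and its size factors, no filter on low counts, other thinning depths, a stricter rule, the study's cell limits, no keratin limits, young or old controls only, each mouse left out and no block. Using 1 profile per barcode, leaving out genes of shared transcript ends and thinning the interaction were chosen after seeing the data. Genes were named by these rules: the rule genes, up to 4 members of each list with the highest level in ESCC rule cells, the 10 most different from other cells per direction, the 10 largest condition differences per direction without overlap, the 5 largest interaction coefficients per direction, and fixed keratinocyte and cycle genes. Lig1, Dnmt1, Cdc25b, Slc7a11, Cdca7, Rad51ap1, Rbl1 and Cdkn2a were named after their values were seen. Gene positions are from GENCODE for GRCm38 and promoters from RefSeq GRCm38.p6.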

Additional observations from a re-analysis of the deposited data

Results flagged for a closer look

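In 5 of 41 tested sets of 6 control mice, 1 mouse stood apart by Dixon's criterion (critical value 0.625), where chance gives about 1 in 20. In the cycling cells, control mouse 5 had 735 normalised CPM of Ncl, mouse 1 had 22.98 of Rps6, mouse 3 had 1537 of Npm1, mouse 2 had 71.1 of H2afz and mouse 3 had 265 of Fgfr2. The values of Rps6 and H2afz lay below the level of 3 UMIs, which is 34.5 CPM in mouse 1 and 107 CPM in mouse 2. These 2 flags thus rest on very few UMIs. Mouse 3 contributed only 10 rule cells, and 3 UMIs equal 159 CPM in it.

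For 28 named genes the step from other cells to cycling cells differed between ESCC and control by the interaction test. Only 4 of them, Cdkn1a, Krt6a, Ckap2 and Tubb6, passed in all alternatives. The call was lost in 9 of 17 alternatives for Crabp2, 9 of 16 for Kif15, 7 of 15 for Sgpp2, 4 of 15 for Ank3 and 1 of 15 for Camk1d. The coefficient was positive for Cdkn1a (2.19), Gsta4 (0.93), Klf4 (0.83), Krtdap (1.23), Cyp2f2 (1.01), Hopx (3.86), Camk1d (3.94), Sgpp2 (3.71), Ank3 (2.67) and Crabp2 (2.64), as log2 differences. For Cdkn1a and Gsta4 this is a smaller drop in ESCC than in control. Hopx was at 0 to 39.7 CPM in the cycling cells of control mice, so its coefficient depends on the prior count. The coefficient was negative for the keratins Krt14 (-1.26), Krt5 (-0.77) and Krt6a (-2.10), for the glutathione synthesis gene Gclm (-0.68) and for the tubulin Tubb6 (-1.95). Among mitotic genes it was negative for Smc4 (-1.26), Cenpa (-1.44), Cdc20 (-1.58), Ckap2 (-1.70), Plk1 (-1.91), Aurkb (-1.94), Spc25 (-2.10), Iqgap3 (-2.47), Kif15 (-1.92) and Aspm (-1.88). Among replication genes it was negative for Rrm1 (-1.31), Mcm5 (-1.47) and Mcm4 (-1.80).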

How the results depend on the processing

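The difference in the share of cycling cells was 0.0488 percentage points without 17M and ranged from -2.95 to 0.0488 when 1 mouse was left out. Genes higher and lower in ESCC cycling cells numbered 128 and 75 in thinned cells and 175 and 117 under the stricter rule. There were 640 higher without a filter and 136 lower against old controls. Leaving out 1 mouse gave 223 to 310 higher and 108 to 237 lower. For the interaction, larger and smaller coefficients numbered 5 and 12 without the replicate block, 20 and 29 with DESeq2, 180 and 93 against other cells that pass the keratin limits, and 15 and 17 in thinned cells. There were 31 smaller without a filter, and leaving out 1 mouse gave 24 to 75 larger and 19 to 55 smaller. Genes 2-fold higher and lower than other ESCC cells numbered 11 and 20 in cells thinned to 1500 UMIs and 13 and 35 under the stricter rule, and 3 were lower against other cells that pass the keratin limits. Thinning and the stricter rule also left fewer UMIs or cells. Otherwise the cause was not tested. For single genes 1058 values kept their side of the threshold, 154 lost it, 5 gained it and 0 reversed. Depth limits genes under the floor of 34.5 to 159 CPM in control mice.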
